A study of Mus musculus with 9 samples.

Results

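The smooth muscle contractile genes are 10 genes whose products form or control the contractile apparatus of smooth muscle: Myh11, Lmod1, Smtn, Actg2, Myocd, Acta2, Tagln, Cnn1, Myl9 and Mylk. They were matched by symbol in the GENCODE M21 annotation and make up 10 of the 55536 annotated genes counted in each library. All 10 passed the filter on low counts, as did 16039 genes in all. Their levels were compared in bulk RNA sequencing of quadriceps muscle between 5 libraries labelled Il17ra-/- and 4 labelled wild type, to ask how the absence of an interleukin-17 receptor subunit goes with the transcriptome of injured muscle. All 9 libraries came from C57BL/6 mice with a labelled age of 6 weeks whose quadriceps had been injured by volumetric muscle loss, the surgical removal of a piece of muscle. For both genotypes alike, the sample characteristics give saline with tissue taken at 1 week, but PCL and a time of 6 weeks stand in the protocol for extraction. Which part of Il17ra the allele removes, and in which cells, is not stated in the labels, and they tie no library to an animal (the series' design text speaks of triplicates), so that p-values measure the spread between these libraries.

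Smooth muscle contracts when a rise in calcium activates myosin light chain kinase, which phosphorylates the regulatory light chain and lets smooth muscle myosin pull on actin filaments. The genes of this apparatus are switched on together by serum response factor and its partner myocardin, which act through a DNA element called the CArG box. In skeletal muscle the genes mark the walls of blood vessels, and in wounds a subset of them is also expressed by myofibroblasts, the contractile fibroblasts that lay down scar matrix. By this background the genes were divided into those largely restricted to smooth muscle (Myh11, Lmod1, Smtn, Actg2 and the regulator Myocd) and those shared with myofibroblasts (Acta2, Tagln, Cnn1, Myl9 and Mylk, the last of which is also made in a non-muscle form).

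The libraries held 31294089 to 46435401 counts, and 3 counts corresponded to 0.0646 to 0.0959 CPM (counts scaled to a common library size with edgeR's TMM factors). Il17ra itself was higher in the libraries labelled Il17ra-/- (181.1 to 284 CPM) than in those labelled wild type (75.9 to 119 CPM), and its log2 fold change of 1.11 (SE 0.17) passed edgeR's test (adjusted p = 0.00208). This level of the targeted gene goes against its label, so "higher" and "lower" are used for libraries as labelled. Wild-type replicate 2 stood apart on the first principal component (38.2% of the variance), at −66.2 against −7.66 to 27.5 in the other libraries, and had the smallest total and the fewest genes with a count (17256). Calls and fold changes that rest on it are given with and without it, while correlations between genes were taken over all libraries only. As to the labelled tissue, markers of skeletal fibres summed to 3218 to 4328 CPM in libraries labelled Il17ra-/- and 1176 to 2929 CPM in those labelled wild type. The 9 fibroblast markers summed to far more, 49820 to 65690 CPM in libraries labelled Il17ra-/- and 62050 to 66340 CPM in those labelled wild type. Leukocyte markers were low, with 6 of 10 (among them Ptprc, Adgre1, Itgam, Cd3e and S100a8) under 1 CPM in every library.

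Every smooth muscle gene was detected, over a wide range of levels. Scaled to exon length, Acta2, the smooth muscle actin, was the most abundant, at 165 ± 26.1 CPM per kb in libraries labelled Il17ra-/- (SD, n = 5) and 122 ± 58.7 CPM per kb in those labelled wild type (SD, n = 4). The regulatory light chain Myl9 came next, at 124 ± 11.45 CPM per kb in libraries labelled Il17ra-/- and 111 ± 38.7 CPM per kb in those labelled wild type. Acta2 exceeded Myl9 in 5 of 5 libraries labelled Il17ra-/- and 3 of 4 labelled wild type, although the ranges of the pair overlapped. Below them was a wide gap to Myh11, the smooth muscle myosin heavy chain, at 27.6 ± 5.125 CPM per kb in libraries labelled Il17ra-/- and 12.8 ± 1.645 CPM per kb in those labelled wild type. Smtn, the actin-binding protein smoothelin, stood at 19.5 ± 1.26 CPM per kb in libraries labelled Il17ra-/- and 18 ± 1.93 CPM per kb in those labelled wild type. Myh11 was above Smtn in all 5 libraries labelled Il17ra-/- and in none of the 4 labelled wild type. Per kb of exon that no other gene shares, a scale added after the values were seen, Myh11 was above Smtn in 3 of 5 libraries labelled Il17ra-/- and again in none of the 4 labelled wild type. Per kb of all exon, Mylk, the kinase, and Tagln, the actin cross-linker transgelin, had overlapping ranges. Mylk stood at 12.2 ± 1.43 CPM per kb in libraries labelled Il17ra-/- and 8.135 ± 1.28 CPM per kb in those labelled wild type. Tagln stood at 12.2 ± 2.24 CPM per kb in libraries labelled Il17ra-/- and 8.65 ± 4.16 CPM per kb in those labelled wild type. Per kb of unshared exon, Tagln was at 33.57 to 50.2 CPM in libraries labelled Il17ra-/-, above Mylk at 11.31 to 14.71 CPM. In those labelled wild type, Tagln was at 15.58 to 44.61 CPM and Mylk at 7.543 to 10.59 CPM. The order of this pair thus depends on the scale. The scale of all exon includes the parts of Tagln whose fragments were left uncounted, as described below. Lmod1, a nucleator of actin filaments, reached 4.23 ± 1.625 CPM per kb in libraries labelled Il17ra-/- and 2.78 ± 1.03 CPM per kb in those labelled wild type. Actg2, the actin of visceral smooth muscle, and Cnn1, calponin, lay between 1.47 and 2.425 CPM per kb on average, with overlapping ranges. The transcriptional coactivator Myocd was lowest, at 0.343 ± 0.110 CPM per kb in libraries labelled Il17ra-/- and 0.102 ± 0.0283 CPM per kb in those labelled wild type, which rested on 15 to 114 counts per library.

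The counting limits some of these levels. Of the 1988 bp of Tagln exons (chromosome 9, 45929619 to 45936058, minus strand), 67.9% are shared with exons of the opposite-strand genes Gm48529 and Pcsk7. A fragment touching exons of more than 1 gene was left uncounted with the settings in the file headers, so that the level of Tagln cannot be set beside that of the other genes. The shared part was 16.3% for Smtn and 6.85% for Mylk, and no exon of the other 7 overlaps another gene. Gm48529 averaged 2.58 CPM in libraries labelled Il17ra-/- and 2.17 CPM in those labelled wild type (log2 fold change 0.25, edgeR adjusted p = 0.755). Pcsk7 averaged 28.8 CPM in libraries labelled Il17ra-/- and 32.7 CPM in those labelled wild type (−0.19, adjusted p = 0.52). The coding sequences of Acta2 and Actg2 are 84.2% identical, with a longest shared run of 29 bp, and each is about as close to the skeletal actin Acta1 (85.4% and 84.9%). Reads that map to several places were not counted, and no read length was found in the sources, so that the low counts of Actg2 (44 to 213 per library, against 6069 to 17919 for Acta2) are uncertain.

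Promoter sequences from RefSeq (GRCm38.p6) were at hand for 6 of the genes: Lmod1, Myl9, Cnn1, Smtn, Mylk and Acta2. Those of Acta2 and Myl9 are shown because only they, of the 6, held a match to the CArG box or the CArG-like element defined below. Each runs from 250 bases before to 50 after the RefSeq start. Capitals mark the CArG box or CArG-like element (a CArG box with 1 base of its centre replaced by C or G) and the MCAT element, the site of TEAD factors.
Acta2 (chr19:34255324-34255623, minus strand): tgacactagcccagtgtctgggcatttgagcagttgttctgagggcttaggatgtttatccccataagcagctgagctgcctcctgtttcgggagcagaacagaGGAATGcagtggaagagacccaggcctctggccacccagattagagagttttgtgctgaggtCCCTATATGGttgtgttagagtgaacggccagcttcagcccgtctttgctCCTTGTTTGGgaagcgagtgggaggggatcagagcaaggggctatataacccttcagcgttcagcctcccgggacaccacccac
Myl9 (chr2:156775214-156775513, plus strand): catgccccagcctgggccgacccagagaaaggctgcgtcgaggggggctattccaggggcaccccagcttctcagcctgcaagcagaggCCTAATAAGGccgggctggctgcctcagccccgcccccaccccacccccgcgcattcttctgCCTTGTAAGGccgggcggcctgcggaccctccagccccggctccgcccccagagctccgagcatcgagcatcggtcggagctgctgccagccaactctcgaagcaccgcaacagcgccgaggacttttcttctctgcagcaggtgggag

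Counted back from the start, where the base before it is −1, the CArG-like elements CCCTATATGG and CCTTGTTTGG of Acta2 begin at −84 and −34. The CArG box CCTAATAAGG of Myl9 begins at −161 and its CArG-like element CCTTGTAAGG at −99. The exact CArG box was present in 1 of the 6 promoters (Myl9) and in 1.63% of all 32851 promoters in the table. A CArG box or CArG-like element was present in 2 of 6 (Acta2 and Myl9) and in 9.98% of all. The MCAT element, searched as CATTCC on either strand, was present in 4 of 6 (Acta2, Lmod1, Smtn and Mylk) and in 14.7% of all. A match describes the letters only, and a window without one draws no statement about a factor.

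**Figure D1:**
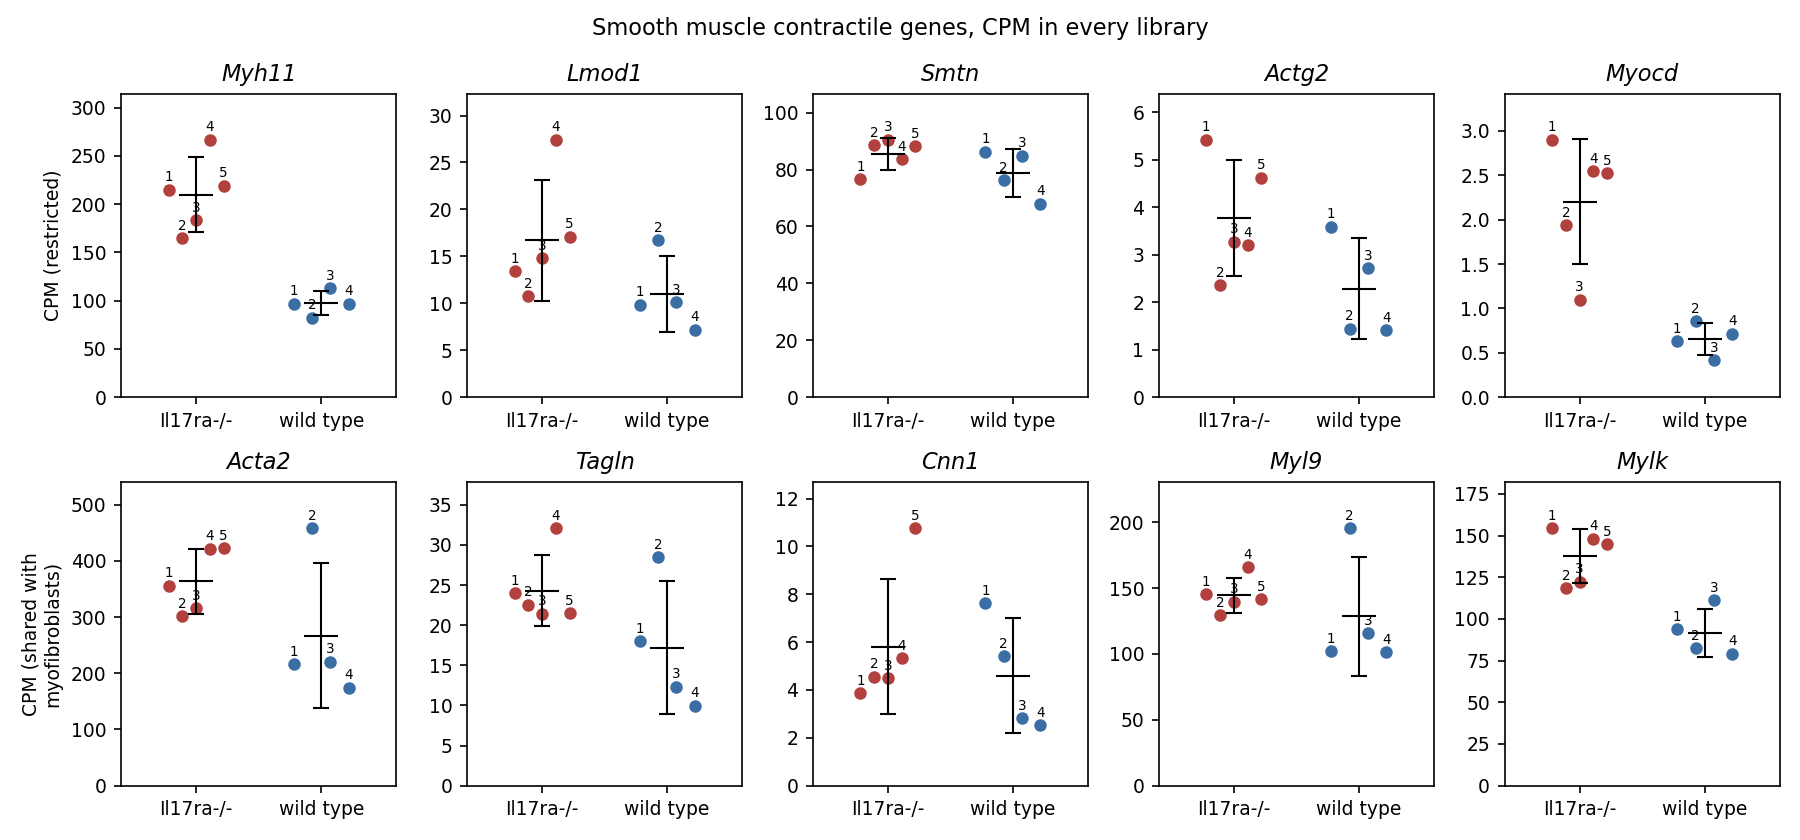
CPM (vertical axis, from 0, own scale for each gene) of the 10 smooth muscle contractile genes in each library, with 5 libraries labelled Il17ra-/- at the left of each panel and 4 labelled wild type at the right. Points are libraries with their replicate number, horizontal marks and bars are the mean ± SD, the upper row holds the restricted genes and the lower row those shared with myofibroblasts. The groups are apart for Myh11, Myocd and Mylk, and wild-type replicate 2 is the highest of its group for Acta2, Tagln and Myl9.

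Of the 10 genes, Myh11 and Mylk rose in the libraries labelled Il17ra-/- and none fell by edgeR's quasi-likelihood test over all genes, at an adjusted p under 0.05. Of all 16039 tested genes, 3.06% were called, 1.35% as higher and 1.71% as lower. Every one of the 10 genes had a positive log2 fold change in the fit to 9 libraries (that of Cnn1 reached −0.004 when 1 library was left out), with a median of 0.54, against a median of −0.003 over all tested genes, of which 49.7% were positive. For 3 of the 10 (Myh11, Mylk and Myocd) the groups were free of overlap, all higher in libraries labelled Il17ra-/-, against 4.63% of all tested genes. In bulk tissue, more cells of a type and more RNA per cell cannot be told apart. As a count of called genes, 1 of 5 restricted genes and 1 of 5 shared genes rose, with median log2 fold changes of 0.72 and 0.44. Whether these subsets differ from each other was not tested.

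Among the restricted genes, Myh11 (chromosome 16, 14194535 to 14291372, minus strand) had 215, 165, 184, 267 and 219 CPM in the libraries labelled Il17ra-/-, against 96.95, 82.4, 113 and 97.0 CPM in those labelled wild type. Every library labelled Il17ra-/- lay above every one labelled wild type. The log2 fold change was 1.11 (SE 0.15, edgeR adjusted p = 7.93e-04; two-sided exact permutation p = 0.0159, the smallest this design can give). The call held in all 18 alternative analyses, with log2 fold changes from 0.97 to 1.19.

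Myocd, which drives the smooth muscle programme together with serum response factor, had 2.90, 1.94, 1.10, 2.55 and 2.52 CPM in the libraries labelled Il17ra-/-, against 0.630, 0.853, 0.419 and 0.717 CPM in those labelled wild type. The groups were apart, but the nearest libraries, Il17ra-/- replicate 3 and wild-type replicate 2, were close. The exact permutation p of 0.0159 only restates that the groups were apart. The log2 fold change of Myocd was the largest of the 10 genes at 1.75 (SE 0.475) and did not pass (edgeR adjusted p = 0.0691). It passed without wild-type replicate 2 (adjusted p = 0.0486), with DESeq2 (0.00248, where 3.36% of all genes were called as higher) and with a stricter filter on low counts (0.0468, where 3.9% were called in either direction). Across the 18 alternatives its log2 fold change ran from 1.59 to 1.92 and its adjusted p from 0.00248 to 0.207.

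The other restricted genes had overlapping groups. Lmod1 stood at 13.4, 10.7, 14.8, 27.4 and 17.1 CPM in libraries labelled Il17ra-/- and 9.86, 16.7, 10.1 and 7.20 CPM in those labelled wild type (log2 fold change 0.61, SE 0.28, edgeR adjusted p = 0.302). Wild-type replicate 2 was the one wild-type library within the range of the Il17ra-/- group. Smtn ranged from 76.7 to 90.4 CPM in libraries labelled Il17ra-/- and from 68.0 to 86.3 CPM in those labelled wild type, with the smallest log2 fold change of the 10 (0.12, SE 0.10, adjusted p = 0.626). Actg2 ranged from 2.36 to 5.42 CPM in libraries labelled Il17ra-/- and from 1.41 to 3.59 CPM in those labelled wild type (0.72, SE 0.38, adjusted p = 0.367). Neither Lmod1, Smtn nor Actg2 passed in any of the 18 alternatives.

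Of the genes shared with myofibroblasts, Mylk (chromosome 16, 34745210 to 35002420, plus strand) had 154, 119, 122, 148 and 145 CPM in the libraries labelled Il17ra-/-, against 93.9, 82.4, 111 and 79.1 CPM in those labelled wild type. The groups did not overlap, with Il17ra-/- replicate 2 and wild-type replicate 3 nearest to each other. The exact permutation p of 0.0159 only restates that separation. The log2 fold change was 0.59 (SE 0.13, edgeR adjusted p = 0.0232). The call was lost without wild-type replicate 1 (adjusted p = 0.051) or 4 (0.0708) and without Il17ra-/- replicate 1 (0.0647), 4 (0.0661) or 5 (0.0572), at log2 fold changes of 0.53 to 0.60. The counts of Mylk do not separate its smooth muscle, non-muscle and short telokin transcripts.

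Acta2 had 356, 301, 315, 421 and 423 CPM in the libraries labelled Il17ra-/-, against 216, 458, 221 and 174 CPM in those labelled wild type. Wild-type replicate 2 was the highest of all 9 libraries, and the other 3 wild-type libraries lay below every library labelled Il17ra-/-. Over 9 libraries the log2 fold change was 0.44 (SE 0.24, edgeR adjusted p = 0.374). Without wild-type replicate 2 it was 0.84 (adjusted p = 0.00313).

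Tagln and Myl9 followed the same pattern over the libraries. Tagln had 24.0, 22.55, 21.45, 32.1 and 21.5 CPM in the libraries labelled Il17ra-/-, against 18.03, 28.5, 12.3 and 9.96 CPM in those labelled wild type, and a log2 fold change of 0.50 (SE 0.26, edgeR adjusted p = 0.357). Without wild-type replicate 2 it was 0.86 (adjusted p = 0.0279). Myl9 had 145, 129.5, 139.7, 166 and 142 CPM in the libraries labelled Il17ra-/-, against 102, 195, 116 and 101 CPM in those labelled wild type, and a log2 fold change of 0.17 (SE 0.18, adjusted p = 0.689). Without wild-type replicate 2 it was 0.44 (adjusted p = 0.0238). For both genes, too, wild-type replicate 2 was above all other wild-type libraries, and the other 3 were below every library labelled Il17ra-/-. Cnn1 ranged from 3.87 to 10.8 CPM in libraries labelled Il17ra-/- and from 2.525 to 7.64 CPM in those labelled wild type (0.34, SE 0.38, adjusted p = 0.716), and its positive sign rested on Il17ra-/- replicate 5, without which the log2 fold change was −0.004.

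Leaving out wild-type replicate 2 thus moved the number of smooth muscle genes called as higher to 6 of 10 (Myh11, Myocd, Acta2, Tagln, Myl9 and Mylk), against 1.61% of all 16634 genes then tested. The groups were apart for 7 of 10, those 6 and Lmod1, against 6.26% of all genes. Relative to the mean of the other 3 wild-type libraries, the ratio in wild-type replicate 2 was 2.25 for Acta2, 2.12 for Tagln, 1.85 for Lmod1 and 1.84 for Myl9, while it was 0.805 for Myh11 and 0.870 for Mylk. What sets that library apart is not given in the labels, and its part in these results was not tested beyond leaving it out. Without both wild-type replicate 2 and Il17ra-/- replicate 1, 4 of 10 were called (Myh11, Acta2, Tagln and Myl9), against 3.21% of all genes. With limma's quality weights, which give less weight to libraries that vary more, 4 of 10 were called (Myh11, Acta2, Tagln and Mylk), against 5.49% of all genes, and with the replicate number as a block 1 of 10 (Myh11), against 2.33%.

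**Figure D2:**
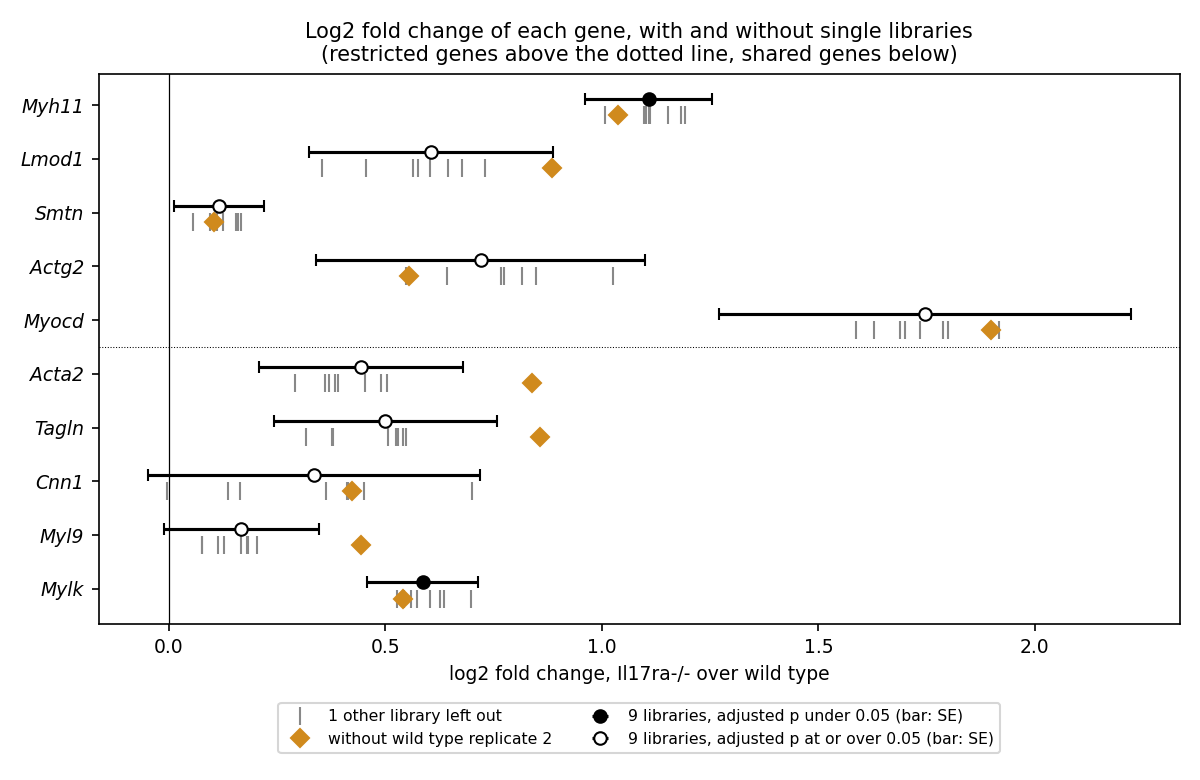
Log2 fold change of each gene, Il17ra-/- over wild type (horizontal axis), with restricted genes above the dotted line and shared genes below it. Circles with bars are the fit to all 9 libraries ± SE, filled where the adjusted p was under 0.05 (Myh11 and Mylk), grey ticks leave out 1 other library and diamonds leave out wild-type replicate 2. The diamond lies apart from the ticks for Acta2 (0.84), Tagln (0.86) and Myl9 (0.44) and among or near them for Myh11 (1.04) and Mylk (0.54).

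Ratios within a library do not depend on how libraries are scaled. Relative to Acta2, on the log2 scale of CPM per kb, Myh11 stood at −2.52, −2.66, −2.57, −2.45 and −2.74 in the libraries labelled Il17ra-/-, against −2.95, −4.265, −2.76 and −2.635 in those labelled wild type. The spread was 0.11 among libraries labelled Il17ra-/- (SD, n = 5) and 0.75 among those labelled wild type (SD, n = 4), with wild-type replicate 2 far below the other 3. The mean difference was 0.56 with that library and 0.19 without it. The ratio of Myl9 to Acta2 was −0.40 ± 0.16 in libraries labelled Il17ra-/- (SD, n = 5). In those labelled wild type it was −0.09 ± 0.19 (SD, n = 4). Libraries labelled Il17ra-/- (−0.659 to −0.255) lay below wild-type replicates 1, 3 and 4 (−0.165, −0.014 and 0.136). Only wild-type replicate 2, at −0.311, lay within the Il17ra-/- range. Smtn was likewise lower relative to Acta2 in libraries labelled Il17ra-/- (−3.33 to −2.76) than in wild-type replicates 1, 3 and 4 (−2.375 to −2.32). For Smtn, wild-type replicate 2 was at −3.58. These ratios are given as a description, without a test.

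**Figure D3:**
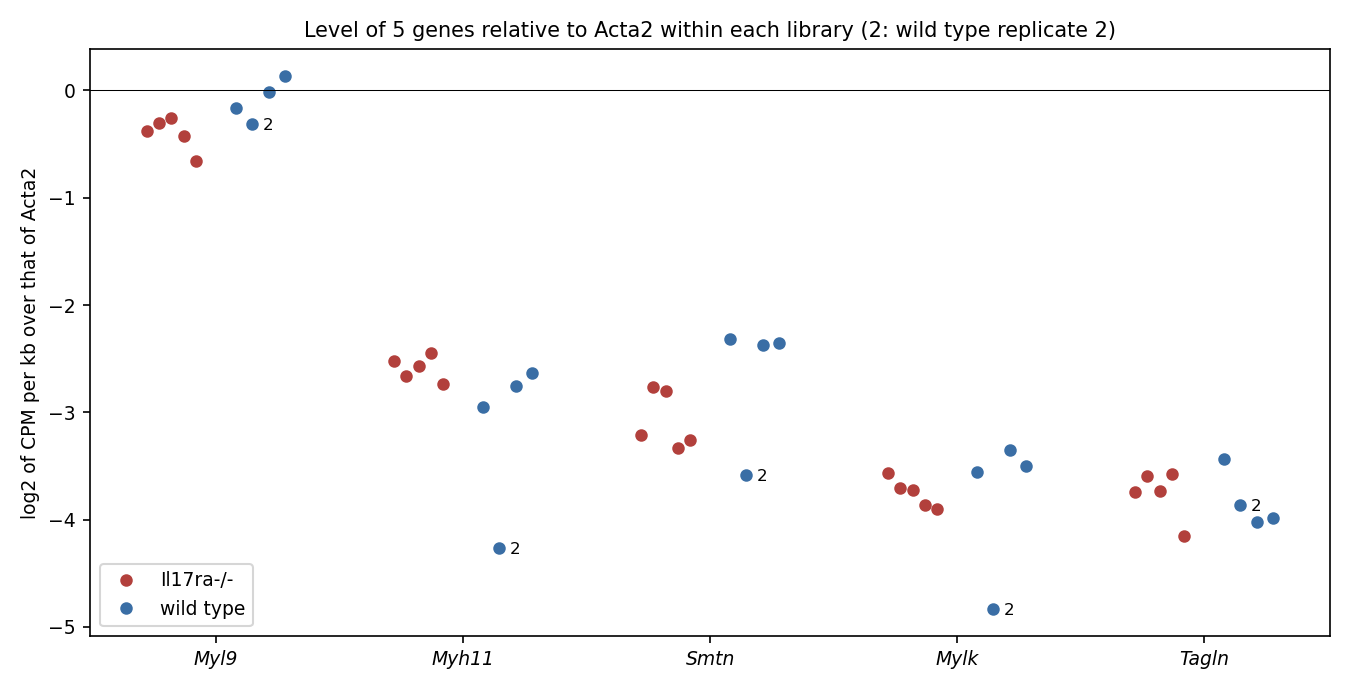
Level of Myl9, Myh11, Smtn, Mylk and Tagln relative to Acta2 within each library, as log2 of the ratio of CPM per kb (vertical axis), with 5 libraries labelled Il17ra-/- at the left of each pair and 4 labelled wild type at the right. Points are libraries and the digit 2 marks wild-type replicate 2, which is the lowest for Myh11 (−4.27), Smtn (−3.58) and Mylk (−4.83) but within the range of the others for Tagln and within that of the Il17ra-/- group for Myl9. Lengths are of all exon, also for Tagln.

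Over the 9 libraries the genes fell into patterns that differed in likeness, given here as Pearson's r of log2(CPM + 1), a description over libraries that share the label difference. Myh11 was most like Mylk (r = 0.948) and Myocd (r = 0.869) and least like Cnn1 (r = 0.267) and Myl9 (r = 0.317) among the 10 genes. Acta2 was most like Myl9 (r = 0.933), Tagln (r = 0.902) and Lmod1 (r = 0.879), and least like Smtn (r = 0.268). Among 9126 named genes with a mean of at least 10 CPM, the genes most like Myh11 were Tbx2 (r = 0.986), Zfp12, Specc1, Klhl23 and Scn4b (r = 0.969 for the last). Those most like Acta2 were Sdhb (r = 0.954), Rpusd1, Mrps30, Ndufb9 and Zc3h10 (r = 0.936 for the last), of which Sdhb and Ndufb9 encode subunits of the mitochondrial respiratory chain and Mrps30 a protein of the mitochondrial ribosome. Since Myh11 separates the labels, genes chosen for their likeness to it differ between the labels by that choice. No r was computed without wild-type replicate 2. In that library Acta2, Tagln, Lmod1 and Myl9 were 2.25, 2.12, 1.85 and 1.84 times the mean of the other wild-type libraries. Myh11 and Mylk were at 0.805 and 0.870 of it. The part of this library in the likenesses was not tested.

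The partners of the contractile proteins changed in part. Of 18 genes of the thin filament and the smooth muscle cytoskeleton, 2 rose and none fell, with a median log2 fold change of 0.32. Tpm2, a tropomyosin that lies along the actin filament, averaged 563 ± 67.6 CPM in libraries labelled Il17ra-/- (n = 5) and 286 ± 80.5 CPM in those labelled wild type (n = 4), with a log2 fold change of 0.98 (SE 0.18, edgeR adjusted p = 0.00951). Synpo2, an actin-bundling protein of the Z-disc and of smooth muscle, averaged 87.7 ± 10.9 CPM in libraries labelled Il17ra-/- and 44.95 ± 12.9 CPM in those labelled wild type (0.96, SE 0.17, adjusted p = 0.00791). Des, the intermediate filament desmin, did not pass (0.62, adjusted p = 0.0583). Without wild-type replicate 2, 4 of the list were called. These genes are also made in skeletal fibres, and 5 of 12 skeletal fibre markers rose as well. All 12 had positive log2 fold changes, with a median of 1.00. The 3 with the smallest p were Myh7 (3.07, edgeR adjusted p = 0.00177), Tnnc1 (2.31, adjusted p = 0.00125) and Tnni1 (2.27, adjusted p = 0.00553). Others moved far less and did not pass, such as Myh4 (0.33, edgeR adjusted p = 0.415), Mylpf (0.32, adjusted p = 0.525) and Actn3 (0.13, adjusted p = 0.743). The part of skeletal fibres in the values of Tpm2, Synpo2 and Des was not tested.

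Of 16 channels, receptors and signalling enzymes of smooth muscle, 3 rose and none fell, with a median log2 fold change of 0.66. They were the subunits of soluble guanylate cyclase, the nitric oxide receptor that relaxes vessels, and the phosphodiesterase that ends its signal. Gucy1a1 averaged 76.2 ± 10.9 CPM in libraries labelled Il17ra-/- (n = 5) and 33.2 ± 3.48 CPM in those labelled wild type (n = 4; log2 fold change 1.20, SE 0.13, edgeR adjusted p = 2.17e-04). Gucy1b1 averaged 54.3 ± 11.8 CPM in libraries labelled Il17ra-/- and 26.25 ± 3.10 CPM in those labelled wild type (1.05, SE 0.16, adjusted p = 0.00204), and Pde5a averaged 27.8 ± 6.47 CPM in libraries labelled Il17ra-/- and 15.99 ± 0.813 CPM in those labelled wild type (0.80, SE 0.17, adjusted p = 0.0182). Without wild-type replicate 2, 5 of the list were called.

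The enzymes that set the phosphorylation of the light chain moved little as a list. Of 16 genes of myosin phosphatase and the signalling around it, 1 rose and none fell, with a median log2 fold change of 0.12. The riser was Rgs4, which speeds the shut-off of G proteins, at 74.9 ± 12.35 CPM in libraries labelled Il17ra-/- and 40.6 ± 5.00 CPM in those labelled wild type (0.88, SE 0.14, edgeR adjusted p = 0.00254). Rgs2, of the same family, had a negative value and did not pass (−0.57, edgeR adjusted p = 0.133). Of 14 regulators around serum response factor and myocardin, none rose and 1 fell, with a median of 0.12 (without wild-type replicate 1, 2 were called). The gene that fell was Klf4, a Kruppel-like factor known to repress smooth muscle genes, at 1409 ± 204 CPM in libraries labelled Il17ra-/- and 2203 ± 209 CPM in those labelled wild type (−0.645, SE 0.12, edgeR adjusted p = 0.011). Tead1, a TEAD factor that binds the MCAT element, did not pass (0.48, edgeR adjusted p = 0.118), nor did Fhl2, a cofactor of serum response factor (−0.60, adjusted p = 0.143).

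Of the cell types described next, only pericytes had markers called as higher in the fit to 9 libraries. Of 11 pericyte markers, 6 rose and none fell, with a median log2 fold change of 0.60, and the list summed to 2257 to 2957 CPM in libraries labelled Il17ra-/- and 1540 to 1819 CPM in those labelled wild type. The 3 with the smallest p were Notch3 (1.14, edgeR adjusted p = 8.76e-04), Rgs5 (0.82, adjusted p = 0.00419) and the potassium channel gene Kcnj8 (0.99, adjusted p = 0.00422). Of these, the receptor Notch3 is also a gene of arterial smooth muscle. The restricted contractile genes summed to 268 to 384 CPM in libraries labelled Il17ra-/- and 174 to 211 CPM in those labelled wild type, also without overlap. Without Myh11 the other 4 summed to 98.4 to 117 CPM in libraries labelled Il17ra-/- and 77.4 to 100.4 CPM in those labelled wild type, which overlap. The shared genes summed to 577 to 773 CPM in libraries labelled Il17ra-/- and 367 to 769 CPM in those labelled wild type, and the top of the wild-type range was replicate 2. Of 14 myofibroblast matrix markers none rose and 1 fell, Ccn2 (−0.92, adjusted p = 0.015; 2 of the list were called without wild-type replicate 1), the median was 0.10, and the list summed to 32720 to 48680 CPM in libraries labelled Il17ra-/- and 34260 to 44290 CPM in those labelled wild type. None of the 12 endothelial markers passed by edgeR, in either direction (2 had an unadjusted p under 0.05, and 2 passed with DESeq2), and the list summed to 343.5 to 404 CPM in libraries labelled Il17ra-/- and 286 to 478 CPM in those labelled wild type. Most of this sum came from 1 gene, Tek, which averaged 294.5 CPM in libraries labelled Il17ra-/- and 294.8 CPM in those labelled wild type. The 3 endothelial markers with the smallest p went different ways. Esam averaged 20.9 CPM in libraries labelled Il17ra-/- and 14.1 CPM in those labelled wild type (0.57, edgeR adjusted p = 0.0993), Cldn5 0.159 CPM in libraries labelled Il17ra-/- and 0.977 CPM in those labelled wild type (−2.61, adjusted p = 0.154), and Pecam1 1.34 CPM in libraries labelled Il17ra-/- and 2.38 CPM in those labelled wild type (−0.825, adjusted p = 0.342). Of 9 fibroblast markers none rose and 1 fell, Pi16 (−0.555, edgeR adjusted p = 0.0207). This call was lost without wild-type replicate 3 or Il17ra-/- replicate 1, 3 or 4, and DESeq2 made 2 calls in the list. Of the 6 leukocyte markers tested none rose and 1 fell, the macrophage gene Cd68 (−2.80, edgeR adjusted p = 2.17e-04). The list did not go 1 way, since 4 of the 6 had positive values that did not pass, and its median was 0.84. Those 4 were low, averaging 0.266 CPM (Ptprc) to 1.205 CPM (Csf1r) in libraries labelled Il17ra-/-. In those labelled wild type they averaged 0.112 CPM (Ptprc) to 0.714 CPM (Csf1r). The whole list, Cd68 included, summed to 8.595 to 16.41 CPM in libraries labelled Il17ra-/- and 18.67 to 36.46 CPM in those labelled wild type. The part of any of these cell types in the levels of the contractile genes was not tested.

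Among relatives of the contractile genes in other cells, 17 of 19 paralogues were tested, 2 rose and none fell. Their log2 fold changes were positive for 9 and negative for 8, with a median of 0.03. The risers were genes of striated muscle, Acta1 (0.94, SE 0.21, edgeR adjusted p = 0.0289) and Lmod2 (1.27, SE 0.28, adjusted p = 0.0228), and Lmod3, of the same kind, had 1.75 (adjusted p = 0.0656). The number called was 0 without Il17ra-/- replicate 3 or 4, 1 without Il17ra-/- replicate 1 or 2 or wild-type replicate 3 and with the replicate block, 3 without wild-type replicate 1 and 4 without wild-type replicate 2. Acta1 is also 1 of the skeletal fibre markers above. The non-muscle actin Actb averaged 1441 ± 73.3 CPM in libraries labelled Il17ra-/- and 1545 ± 423 CPM in those labelled wild type (−0.10, SE 0.15, adjusted p = 0.785), and was chosen after its values were seen.

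**Figure D4:**
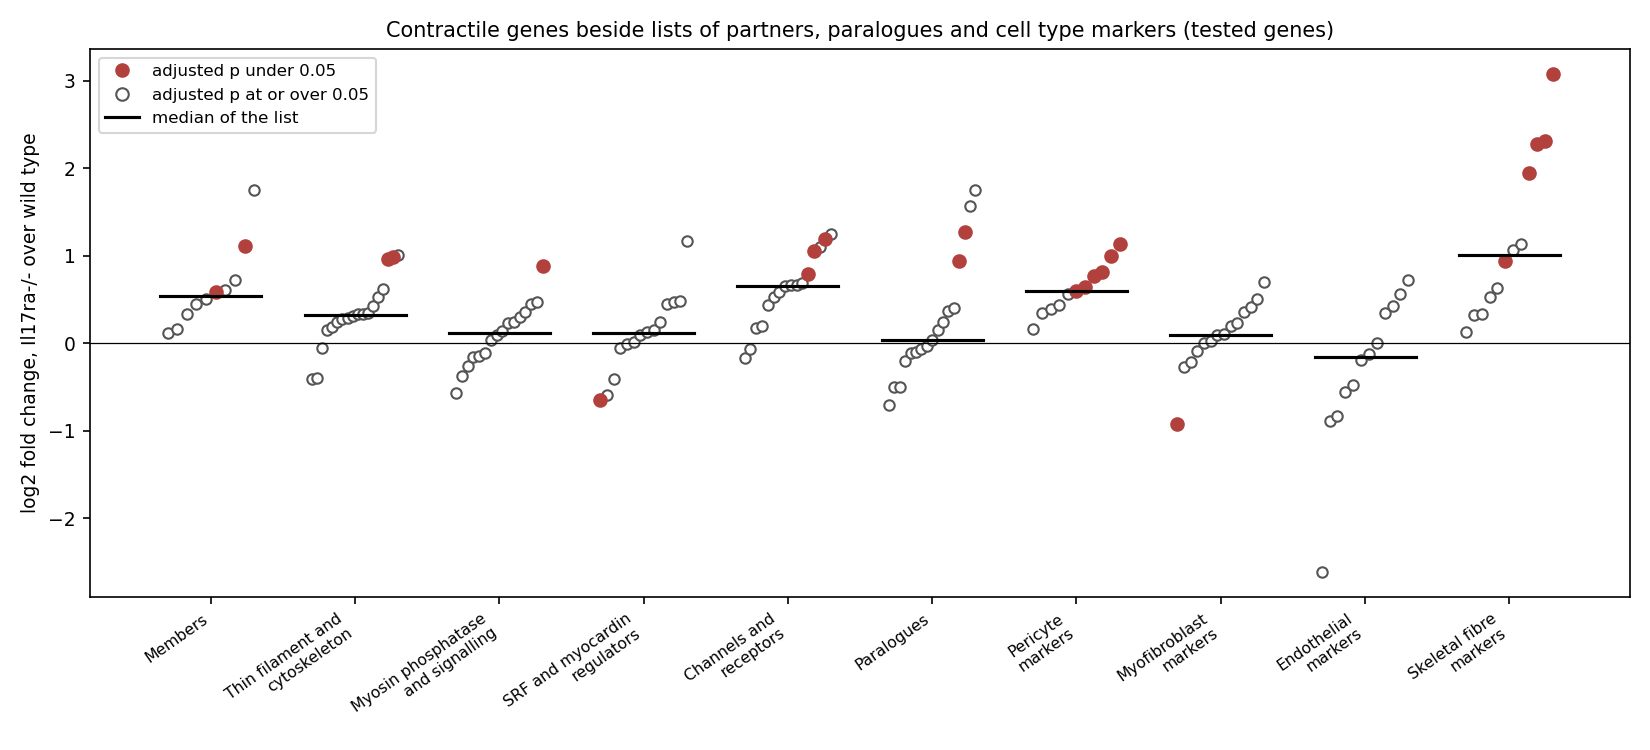
Log2 fold change, Il17ra-/- over wild type (vertical axis), of the 10 smooth muscle contractile genes (Members) and of the tested genes of 9 lists. Points are genes, filled where the edgeR adjusted p was under 0.05, and bars are list medians. The median was 0.54 for the contractile genes, 0.66 for channels and receptors and 0.60 for pericyte markers, against 0.10 for myofibroblast and −0.15 for endothelial markers. It was highest for skeletal fibre markers, at 1.00.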

How the data were processed

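The authors deposited raw counts for every gene of GENCODE M21 (GRCm38), from featureCounts 1.6.0 run on read pairs over exons and without strand, per the file headers. STAR, of unstated version, is the aligner that the submitters' processing notes name. All 55536 gene identifiers matched the annotation. RNA had an integrity number above 8.0 and libraries a stated depth of 30 M reads, per the labels' protocols. Here, genes were filtered with filterByExpr, scaled with TMM factors and compared with edgeR 4.0.16 in R 4.3.3 (quasi-likelihood test, two-sided, genotype label as the only term, 9 libraries, Benjamini-Hochberg adjustment over all 16039 genes). Fold changes are Il17ra-/- over wild type, and each SE was derived from the fold change and its F statistic. The procedure was tested on simulated data. Alternatives were RLE, upper-quartile and total scaling, other filters, DESeq2 1.42.0, limma 3.58.1 (voom with quality weights), a replicate block and leaving out libraries. No pair of libraries agreed within sampling noise. The members and lists were chosen with earlier results of these data known. Named genes are the members, Il17ra, overlapping genes, up to 3 genes of each list with the smallest p, leukocyte markers at or near 0, and the 5 most like Myh11 and Acta2. Outside this rule, Actb, Myh4, Mylpf, Actn3, Tek and Csf1r were named after their values were seen.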

Additional observations from a re-analysis of the deposited data

Results flagged for a closer look

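Within each label, a gene was singled out where the gap between its highest or lowest library and the next was unusually large against the range of the group (above Dixon's critical value). Chance alone does this for about 1 in 20 groups, and 5 of 22 groups met it here. In Il17ra-/- replicate 4, Tagln stood at 32.1 CPM, against 21.45 to 24.0 CPM in the other 4 libraries of that label, and Il17ra at 284 CPM, against 181.1 to 199.7 CPM. In Il17ra-/- replicate 5, Cnn1 stood at 10.8 CPM, against 3.87 to 5.34 CPM. In wild-type replicate 2, Acta2 stood at 458 CPM, against 174 to 221 CPM in the other 3 libraries of that label, and Myl9 at 195 CPM, against 101 to 116 CPM.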

How the results depend on the processing

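Of the 18 alternatives, all kept the calls of Myh11 and Il17ra, 11 kept that of Mylk, and none called Lmod1, Smtn, Actg2 or Cnn1. The number of contractile genes called was 2 in the analysis reported, 4 with limma's quality weights and 4 without wild-type replicate 2 and Il17ra-/- replicate 1 together. It ranged from 1 to 6 when 1 library was left out. Over all genes, 491 were called, 1017 with DESeq2, 880 with limma's quality weights, and 275 to 567 when 1 library was left out. The causes of these differences were not tested. Of the calls, 44.2% were higher, and 58.7% with libraries scaled by their totals alone. The log2 fold change of Il17ra ran from 0.97 to 1.23 and the difference in the ratio of Myh11 to Acta2 from 0.19 to 0.73 when 1 library was left out. Of the 10 genes only Cnn1 changed sign, to −0.004 without Il17ra-/- replicate 5, and it reached 0.701 without wild-type replicate 1. Replicate numbers are shared by the labels, and same-numbered libraries deviated together weakly, with correlations all positive (0.0344 to 0.0806). Libraries of different number and label had correlations from −0.124 to 0.0777. The same number was the best match for Il17ra-/- replicates 2, 3 and 4 but not 1. Since the correlations were weak, the libraries were not taken as pairs in the analysis reported. With the replicate block, which uses replicates 1 to 4, 1 of the 10 genes was called, as without Il17ra-/- replicate 5 alone, and Mylk had an adjusted p of 0.0813. For Myocd, 15 to 114 counts per library limit the precision.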
